A study of Mus musculus with 8 samples.

Results

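The genes described here encode the enzymes that turn prohormones into peptide hormones, together with 2 membrane proteins of the granules in which this happens. They are the convertases Pcsk1 and Pcsk2, the finishing enzymes Cpe and Pam, the widely expressed convertases Furin, Pcsk5 and Pcsk6, and the granule proteins Ptprn and Ptprn2. They were chosen by name, as every non-control probe that the array files assign to 1 of these 9 genes, which gave 9 of the 27962 names and 20 of the 41174 probes on the array. Whole pancreas was compared between C57BL/6 pups aged 1 week of 2 genotypes, 4 Glis3KO2 and 4 wild type (WT), with 1 single-colour Agilent array per sample. Glis3KO2 is, by its labels, a knockout of Glis3, a zinc finger factor of the Gli family that the series title links to beta cell development. The labels give neither the part of the gene that was deleted nor the tissues or litters concerned. A p-value here therefore covers only the spread among these samples. Signals are given as log2 values relative to the 75th percentile of the array, so that 0 stands for that percentile. The brightness of a probe also depends on its sequence, so the levels of different probes are not set against each other.

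Peptide hormones are made as longer precursors that are sorted into dense core granules. There Pcsk1 (also called PC1/3) and Pcsk2 (PC2) cut after pairs of basic residues, Cpe removes the basic residues left at the new ends, and Pam amidates peptides that end in glycine. In islets Pcsk1 and Pcsk2 both act on proinsulin, and Pcsk2 makes glucagon from its precursor in alpha cells. Furin, Pcsk5 and Pcsk6 cut precursors of growth factors and receptors, in large part outside the regulated granule pathway. Ptprn and Ptprn2 resemble receptor tyrosine phosphatases, span the granule membrane and are autoantigens in human autoimmune diabetes.

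The 4 probes that read Pcsk1 and Pcsk2 are shown because the comparison of these 2 genes rests on them. Positions are those the array files give for mouse build mm7, and whether a probe lies in an exon or a UTR was not analysed here. Pcsk1 is read at chr13:72145584-72145643 by its brighter probe A_52_P500979 and at chr13:72112605-72119261 by A_52_P164524, both on the plus strand. The 60 bases of A_52_P164524 are spread over 6657 bases of the genome. Pcsk2 is read at chr2:143554770-143554829 by its brighter probe A_51_P229613 and at chr2:143556666-143556725 by A_51_P134045, both on the plus strand. Whole probes are given for Pcsk1, and the first 30 bases of each probe for Pcsk2, 5' to 3' as the array files list them.
Pcsk1 A_52_P500979: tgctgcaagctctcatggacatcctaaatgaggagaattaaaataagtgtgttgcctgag
Pcsk1 A_52_P164524: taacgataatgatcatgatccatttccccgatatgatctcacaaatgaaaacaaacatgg
Pcsk2 A_51_P229613 (first 30 bases): gacacaagcaatcccagcctggtctcaagc
Pcsk2 A_51_P134045 (first 30 bases): gattcaggtgaaatgtctgttcatctcttc

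On each array 31353 to 35631 probes (76.1% to 86.5%) were well above background, and before scaling the 75th percentile ranged from 460 to 694. The Glis3KO2 arrays shared 1 slide and the WT arrays another, so that a slide effect and a genotype effect cannot be told apart in what follows. The female transcript Xist was high on 3 Glis3KO2 arrays and 1 WT array. On the first principal component, which held 26.5% of the variance, Glis3KO2 replicates 3 and 4 stood at 39.8 and 59.0, Glis3KO2 replicates 1 and 2 at 0.459 and -13.0, and the WT arrays between -26.0 and -15.4. The single Glis3 probe (A_52_P546200, chr19:28054217-28057750, minus strand) was well above background on 0 of 4 Glis3KO2 arrays and 3 of 4 WT arrays. It averaged -6.15 ± 0.21 in Glis3KO2 and -5.58 ± 0.33 in WT (SD, n = 4 each), with overlapping groups, and was too dim to enter the test. In whole pancreas, fewer cells of a type and less RNA per cell cannot be told apart.

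None of the 9 processing genes passed the threshold between Glis3KO2 and WT pancreas. Of the 20 probes, 19 were tested with limma, which required a signal well above background on 4 or more of the 8 arrays, and 0 of 19 had an adjusted p under 0.05. The share over all tested probes was 0.256% (85 of 33239), with 0.0812% higher in Glis3KO2 and 0.174% lower. At an unadjusted p under 0.05, 3 of the 19 member probes differed, both Pcsk1 probes and the dimmer Pcsk2 probe, against 8.97% of all tested probes. The groups did not overlap for 2 of the 19, both of them Pcsk1 probes, against 5.20% of all tested probes. Read by the brightest probe of each gene, 3 of the 9 genes had a positive difference and 6 a negative one, with a median log2 difference of -0.01 beside -0.01 over all tested probes. Pcsk1 was the gene with the largest difference among the 9, and the other 8 lay between -0.20 and 0.21.

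**Figure D1:**
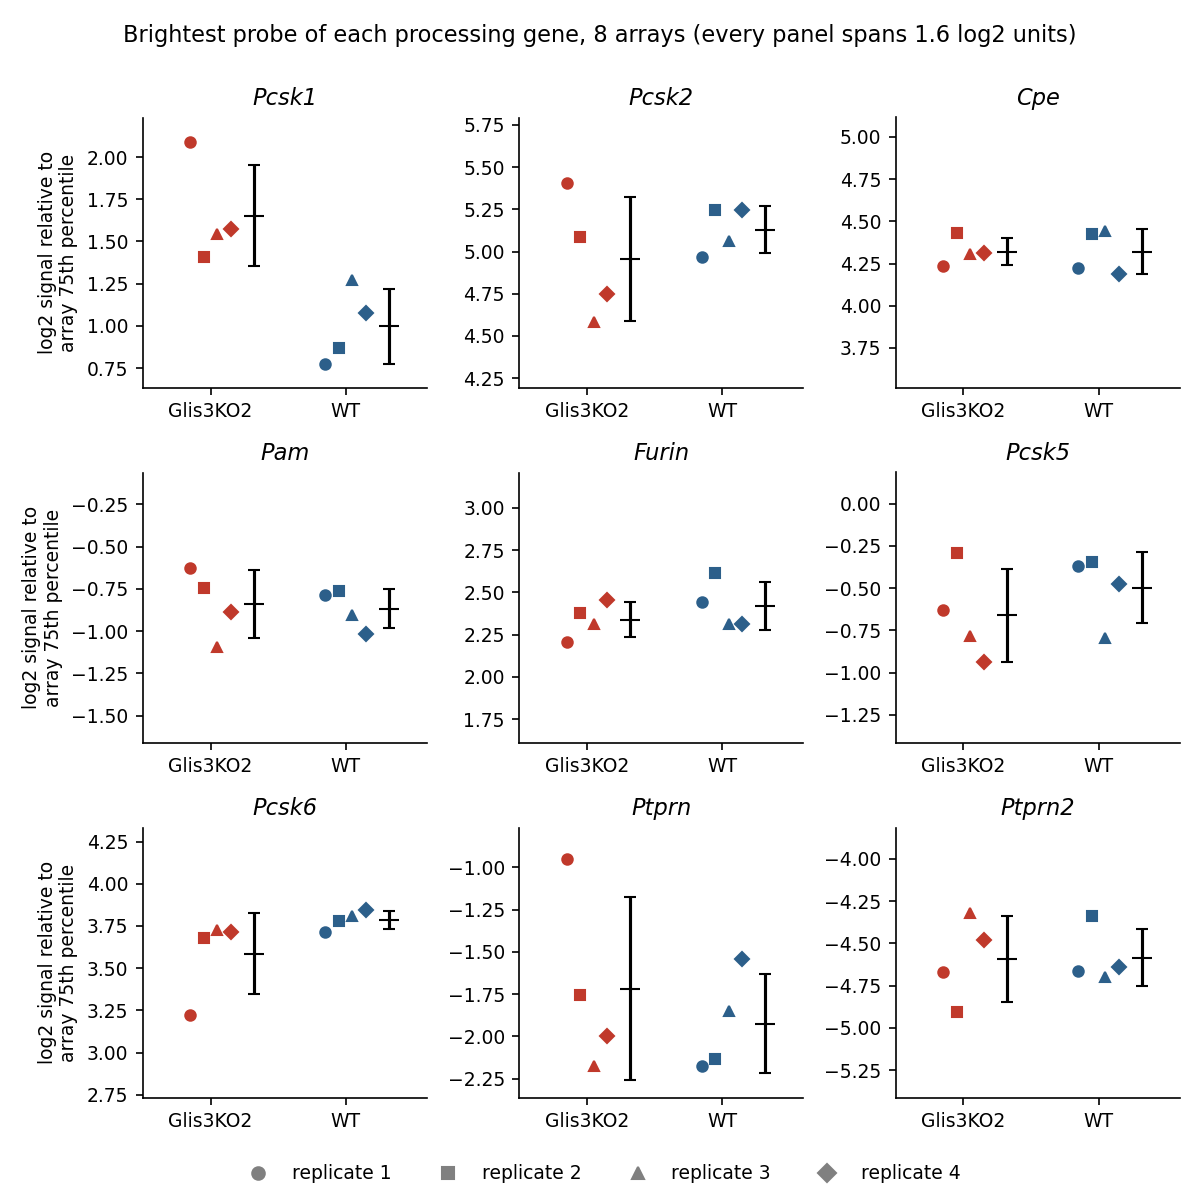
Log2 signal, with the 75th percentile of the array at 0, for the brightest probe of each of the 9 processing genes, with Glis3KO2 left of WT; points are the 4 arrays of a genotype, symbols mark the replicate number, and bars are the mean ± SD. The genotypes separate for Pcsk1 and overlap for the other 8 genes, and Glis3KO2 replicate 1 stands away from its group for Pcsk1, Pcsk6 and Ptprn.

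Pcsk1, the convertase that opens proinsulin processing in beta cells, had the higher signal in Glis3KO2 pancreas. Its brighter probe read 2.09, 1.41, 1.54 and 1.57 on Glis3KO2 replicates 1 to 4, against 0.78, 0.87, 1.27 and 1.08 on WT replicates 1 to 4. The lowest Glis3KO2 array lay above the highest WT array, and Glis3KO2 replicate 1 was the highest of all. The mean was 1.65 ± 0.30 in Glis3KO2 and 1.00 ± 0.22 in WT (SD, n = 4 each), a ratio of 1.57. The log2 difference of 0.66 (SE 0.17, 95% interval 0.26 to 1.05) was not past the threshold after adjustment over all tested probes (limma adjusted p = 0.279).

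The dimmer Pcsk1 probe gave nearly the same difference. It read -2.29, -2.81, -2.69 and -2.45 on the Glis3KO2 arrays, against -3.30, -3.47, -2.97 and -3.05 on the WT arrays, again without overlap. The log2 difference was 0.64 (SE 0.16, limma adjusted p = 0.235). With the background modelled by normexp and an offset of 50, which compresses dim signals, this value was 0.27.

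Pcsk2, the convertase that completes proinsulin processing and acts in alpha cells, did not share that direction. Its brighter probe read 5.40, 5.09, 4.58 and 4.75 on Glis3KO2 replicates 1 to 4, against 4.97, 5.24, 5.06 and 5.25 on the WT arrays. Glis3KO2 replicates 3 and 4 were the lowest arrays and Glis3KO2 replicate 1 the highest, so the groups overlapped. The log2 difference was -0.17 (SE 0.18, 95% interval -0.58 to 0.23, limma adjusted p = 0.830), and without Glis3KO2 replicates 3 and 4 it was 0.12. The dimmer Pcsk2 probe read 0.52, 0.03, -0.01 and 0.16 on the Glis3KO2 arrays, against 0.44, 0.59, 0.83 and 0.66 on the WT arrays. Here 3 of the 4 Glis3KO2 arrays lay below every WT array and replicate 1 did not. Its log2 difference was -0.45 (SE 0.14, limma adjusted p = 0.393).

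Set beside each other within an array, where scaling between arrays cancels, Pcsk1 stood higher against Pcsk2 on every Glis3KO2 array than on any WT array. The brighter Pcsk1 probe minus the brighter Pcsk2 probe was -3.31, -3.68, -3.04 and -3.17 on the Glis3KO2 arrays, against -4.19, -4.38, -3.79 and -4.17 on the WT arrays. The lowest Glis3KO2 array, replicate 2, lay just above the highest WT array, replicate 3. The mean was -3.30 ± 0.28 in Glis3KO2 and -4.13 ± 0.25 in WT (SD, n = 4 each), so that the ratio of Pcsk1 to Pcsk2 signal was 1.78 times as large in Glis3KO2 (log2 difference 0.83). The 2-sided exact permutation p was 0.0286, the smallest that 70 regroupings of 4 against 4 arrays can give, and 0.0571 after adjustment over the 2 pairs tested. The value does not give the ratio of the 2 transcripts, since the probes differ in brightness. A within-array difference bears on unequal change and not on which of the genes changed.

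The direction was the same for every choice of probe. The other 3 combinations of a Pcsk1 probe with a Pcsk2 probe, added after the values were seen, gave log2 differences of 1.11, 0.81 and 1.09, each with an exact permutation p of 0.0286. The combinations share probes and arrays and are not independent of each other. The mean of all probes of each gene gave 0.96. Without Glis3KO2 replicates 3 and 4 the difference was 0.63, with an exact permutation p of 0.0667, the smallest that 15 regroupings can give.

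**Figure D2:**
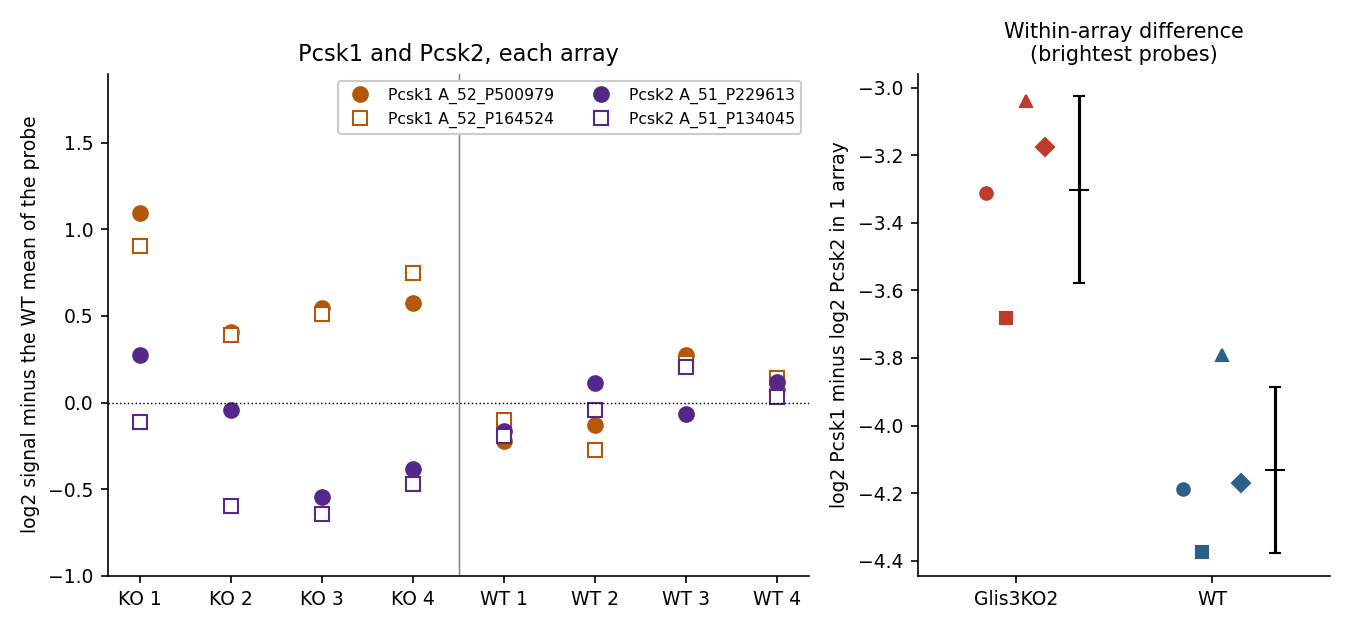
Left, log2 signal of both Pcsk1 probes and both Pcsk2 probes on each array minus the WT mean of that probe, for Glis3KO2 (KO) replicates 1 to 4 and then WT replicates 1 to 4. Right, the brighter Pcsk1 probe minus the brighter Pcsk2 probe within each array, with the mean ± SD; the 4 Glis3KO2 arrays lie between -3.68 and -3.04 and the 4 WT arrays between -4.38 and -3.79.

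The promoters of the 2 convertases, windows of 300 bases around the RefSeq start (GRCm38.p6), are given to show how unlike they are. The Pcsk1 promoter is chr13:75089607-75089906 and the Pcsk2 promoter chr2:143545883-143546182, both on the plus strand. Capitals mark the core TGACG of the cyclic AMP response element on either strand, and the full palindrome TGACGTCA, which holds it on both strands.
Pcsk1 promoter: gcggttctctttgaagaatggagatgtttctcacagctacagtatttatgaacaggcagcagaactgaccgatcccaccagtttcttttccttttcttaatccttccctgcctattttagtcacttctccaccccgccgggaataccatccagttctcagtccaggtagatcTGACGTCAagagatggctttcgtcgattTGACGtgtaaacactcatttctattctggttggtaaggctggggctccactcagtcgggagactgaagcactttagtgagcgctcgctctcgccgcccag
Pcsk2 promoter: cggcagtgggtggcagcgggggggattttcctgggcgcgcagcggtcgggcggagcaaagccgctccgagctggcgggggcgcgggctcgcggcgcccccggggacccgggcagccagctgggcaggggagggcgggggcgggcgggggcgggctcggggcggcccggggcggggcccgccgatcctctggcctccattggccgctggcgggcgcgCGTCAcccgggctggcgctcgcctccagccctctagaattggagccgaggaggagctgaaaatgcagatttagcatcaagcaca
The Pcsk1 promoter is 49.3% G or C with 13 CpG dinucleotides, and the Pcsk2 promoter 76.3% with 36. The core TGACG matches 3 times in the Pcsk1 promoter, 2 of them within the 1 palindrome, and 1 time in the Pcsk2 promoter. Of 32851 mouse promoters of this length, 20.8% hold TGACG on either strand and 1.79% hold TGACGTCA. The letters TGGGGGG, a part of the G-rich sites described for Glis and Gli proteins, are in 8.47% of promoters and in neither of these windows on either strand. Promoters were found for 8 of the 9 genes, and a match is a description of the sequence and not a site of binding.

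The enzymes that finish the peptides differed little. Cpe, the carboxypeptidase, read 4.23, 4.43, 4.31 and 4.31 on the Glis3KO2 arrays and 4.23, 4.43, 4.44 and 4.19 on the WT arrays by its brighter probe (A_51_P246001, chr8:63013052-63013111, minus strand). The groups lay within each other, and the 95% interval of the log2 difference was -0.23 to 0.23, with a mean of 4.32 in both. The second Cpe probe (A_52_P78417, chr8:63013247-63014981, minus strand) had a log2 difference of -0.01 (SE 0.10, 95% interval -0.25 to 0.22). Both intervals exclude a difference of the size measured for the insulin precursor gene Ins1 (-2.54), as do those of every other tested member probe. Cpe in whole pancreas is read from several cell types, so these values do not bear on Cpe within beta cells.

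Pam, the amidating enzyme, has 3 probes. The brightest (A_51_P194070, chr1:97747887-97748206, minus strand) read -0.63, -0.74, -1.09 and -0.89 on the Glis3KO2 arrays, against -0.79, -0.76, -0.90 and -1.02 on the WT arrays. The groups overlapped, and the log2 difference was 0.03 (SE 0.13, 95% interval -0.25 to 0.31). The second (A_52_P546610) had a log2 difference of 0.14 (SE 0.16, 95% interval -0.22 to 0.49). The third (A_52_P494289) was well above background on 1 Glis3KO2 array and 3 WT arrays, and its WT values spread from -7.02 to -4.06, so that its log2 difference of -0.27 has an SE of 0.52.

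The widely expressed convertases did not pass the threshold either. Furin, which cuts precursors in the trans-Golgi network and at the cell surface, was read by 1 probe (A_51_P400107, chr7:76260664-76260723, minus strand). It read 2.21, 2.38, 2.31 and 2.46 on the Glis3KO2 arrays, against 2.44, 2.61, 2.31 and 2.31 on the WT arrays. The groups overlapped, with a log2 difference of -0.08 (SE 0.11, 95% interval -0.33 to 0.17, limma adjusted p = 0.884).

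Pcsk6, also called PACE4, which acts on TGF-beta family precursors among others, had a negative difference by both probes and did not pass the threshold. Its brighter probe (A_52_P376574, chr7:61908210-61908269, plus strand) read 3.22, 3.68, 3.73 and 3.71 on the Glis3KO2 arrays, against 3.72, 3.78, 3.81 and 3.84 on the WT arrays. Glis3KO2 replicate 1 lay apart below the other 7 arrays, which spanned 3.68 to 3.84. The log2 difference was -0.20 (SE 0.13, 95% interval -0.49 to 0.09, limma adjusted p = 0.704), and -0.08 without that array. The second probe (A_51_P180905) had a log2 difference of -0.15 (SE 0.13).

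Pcsk5, which shares substrates with Furin and Pcsk6, has the most probes of the 9 genes, 6 in all between 17133935 and 17374565 of chromosome 19 (mm7, minus strand). They are assigned to different transcript records and did not point one way. The brightest (A_52_P544043, chr19:17264803-17265674) read -0.63, -0.29, -0.79 and -0.94 on the Glis3KO2 arrays, against -0.37, -0.34, -0.80 and -0.48 on the WT arrays, with a log2 difference of -0.16 (SE 0.16). The other 4 tested probes had log2 differences of 0.23 (A_51_P375680), -0.35 (A_52_P571794), 0.10 (A_52_P143157) and -0.06 (A_52_P537590), each with overlapping groups. The last probe (A_52_P347053) was well above background on 0 of the 8 arrays and was not tested.

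**Figure D3:**
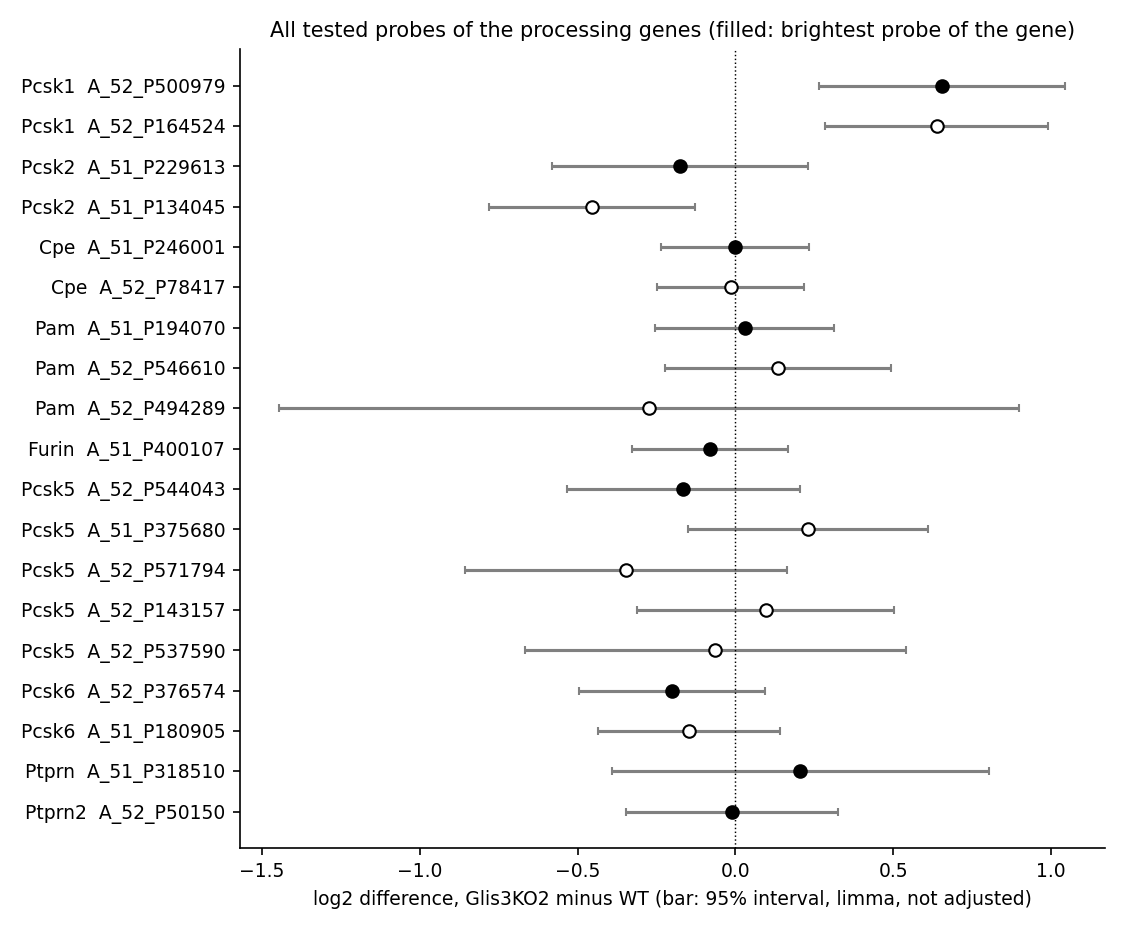
Log2 difference, Glis3KO2 minus WT, of the 19 tested probes of the processing genes, with 95% intervals from limma that are not adjusted for the number of probes; filled points are the brightest probe of a gene. Both Pcsk1 probes lie at 0.64 and 0.66 with intervals above 0, the dimmer Pcsk2 probe lies at -0.45 with an interval below 0, and the other 16 intervals include 0.

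Ptprn, a membrane protein of the dense core granules of endocrine cells, was read by 1 probe (A_51_P318510, chr1:75474843-75474902, minus strand). It read -0.95, -1.75, -2.18 and -1.997 on the Glis3KO2 arrays, against -2.18, -2.13, -1.85 and -1.54 on the WT arrays. Glis3KO2 replicate 1 was the highest of the 8 arrays, replicates 2 and 4 lay within the WT range, and replicate 3 lay level with the lowest WT array. The log2 difference was 0.21 (SE 0.26, limma adjusted p = 0.874). It was -0.05 without Glis3KO2 replicate 1 and 0.57 without Glis3KO2 replicates 3 and 4, with no call either way. Its relative Ptprn2 (A_52_P50150, chr12:114985111-114985927, plus strand) read -4.67, -4.91, -4.32 and -4.48 on the Glis3KO2 arrays, against -4.66, -4.33, -4.70 and -4.64 on the WT arrays. Its log2 difference was -0.01 (SE 0.15, 95% interval -0.35 to 0.33). Within an array, Ptprn minus Ptprn2 differed by 0.22 between Glis3KO2 and WT (exact permutation p = 0.686, the same after adjustment over the 2 pairs), by -0.06 without Glis3KO2 replicate 1 and by 0.78 without Glis3KO2 replicates 3 and 4.

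The processing genes varied more among the Glis3KO2 arrays than among the WT arrays in 7 of 9 cases (77.8%) by their SD, beside 65.8% of all tested probes. Glis3KO2 replicate 1 was the highest of its group for 4 of the 9 genes and the lowest for 3. Such counts were also reached in WT, where replicate 2 was the highest for 4 and replicate 1 the lowest for 4. WT replicate 4 was the highest for 3 and the lowest for 3. Glis3KO2 replicate 1 was the highest for Pcsk1, Pcsk2, Pam and Ptprn and the lowest for Cpe, Furin and Pcsk6. It also had the highest summed level of the 10 beta cell markers among the Glis3KO2 arrays, 397 against 192 to 214 on the other 3, in scaled signal where the 75th percentile is 1. Most of that gap came from Iapp, the amylin precursor, which did not pass the threshold and stood at 288 on replicate 1 and 115 to 136 on the other 3. The other 9 markers summed to 109 on replicate 1 and 56.2 to 88.2 on the other 3. The part of this array in the values of these genes was not tested.

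No partner of the convertases or related processing enzyme passed the threshold. Of 23 such genes, all tested, 0 rose and 0 fell by limma. At an unadjusted p under 0.05, 3 of them differed, against 8.97% of all tested probes. The difference was positive for 18 of the 23, beside 48% of all tested probes, with a median log2 difference of 0.10. Pcsk1n, whose product proSAAS inhibits Pcsk1, read 3.87, 3.69, 3.04 and 3.36 on the Glis3KO2 arrays, against 3.78, 3.97, 3.90 and 4.10 on the WT arrays. Glis3KO2 replicates 3 and 4 lay lowest and the groups overlapped, with a log2 difference of -0.45 (SE 0.18, limma adjusted p = 0.505). Scg5, whose product 7B2 is the chaperone of Pcsk2, read 1.48, 1.20, 0.88 and 0.98 on the Glis3KO2 arrays, against 1.24, 1.24, 1.61 and 1.45 on the WT arrays. It had a log2 difference of -0.25 (SE 0.15, limma adjusted p = 0.690).

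Among the precursors on which these enzymes act, the differences spanned a wider range. Of 24 genes of prohormones and granins, 23 were tested, of which 3 rose, 4 fell and 16 did not pass the threshold. The share past it over all tested probes was 0.256%, and the median log2 difference of the list was -0.15. The list was chosen with earlier results of these data known, so its contrast with the enzymes is a description and was not tested. Ins2 and Ins1, the precursors of insulin, both fell, with log2 differences of -3.70 and -2.54 (SE 0.22 and 0.19, limma adjusted p = 5.36e-04 and 0.00132). Ins2 read 4.67 to 5.83 on the Glis3KO2 arrays and 8.77 to 9.07 on the WT arrays, and Ins1 read 4.56 to 5.37 on the Glis3KO2 arrays and 7.39 to 7.79 on the WT arrays. Both kept their call under all 19 alternative settings. Among these settings, the deposited series table holds the same values as the array files, so it repeats the main fit. Gcg, the glucagon precursor that Pcsk2 processes, read 7.425, 7.29, 6.71 and 6.89 on the Glis3KO2 arrays. On the WT arrays it read 7.429 to 7.61, so the groups narrowly did not overlap. Its log2 difference of -0.46 did not pass the threshold (SE 0.16, limma adjusted p = 0.445).

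The other precursors past the threshold went both ways. Pdyn, the dynorphin precursor, and Cck, the cholecystokinin precursor, rose by 4.84 and 4.44 on the log2 scale (SE 0.42 and 0.61). The granin Chgb rose by 1.77 (SE 0.22), while its relative Chga fell by 1.93 (SE 0.20) and Ppy, the pancreatic polypeptide precursor, fell by 2.01 (SE 0.21). Pdyn read 1.18 to 3.33 on the Glis3KO2 arrays and -3.07 to -2.57 on the WT arrays, so the groups were far apart. Cck read -0.95 to 1.81 on the Glis3KO2 arrays and -4.20 to -3.70 on the WT arrays. Of 19 alternative settings, the call held in 18 for Pdyn, 9 for Cck, 11 for Chgb, 16 for Chga and 16 for Ppy. Without Glis3KO2 replicates 3 and 4, 0 precursors rose and 2 fell, Ins1 and Ins2. With any 1 WT array or Glis3KO2 replicate 4 left out, 1 rose and 4 fell. The replicate number as a block and Xist as a covariate each left 1 that rose and 2 that fell.

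**Figure D4:**
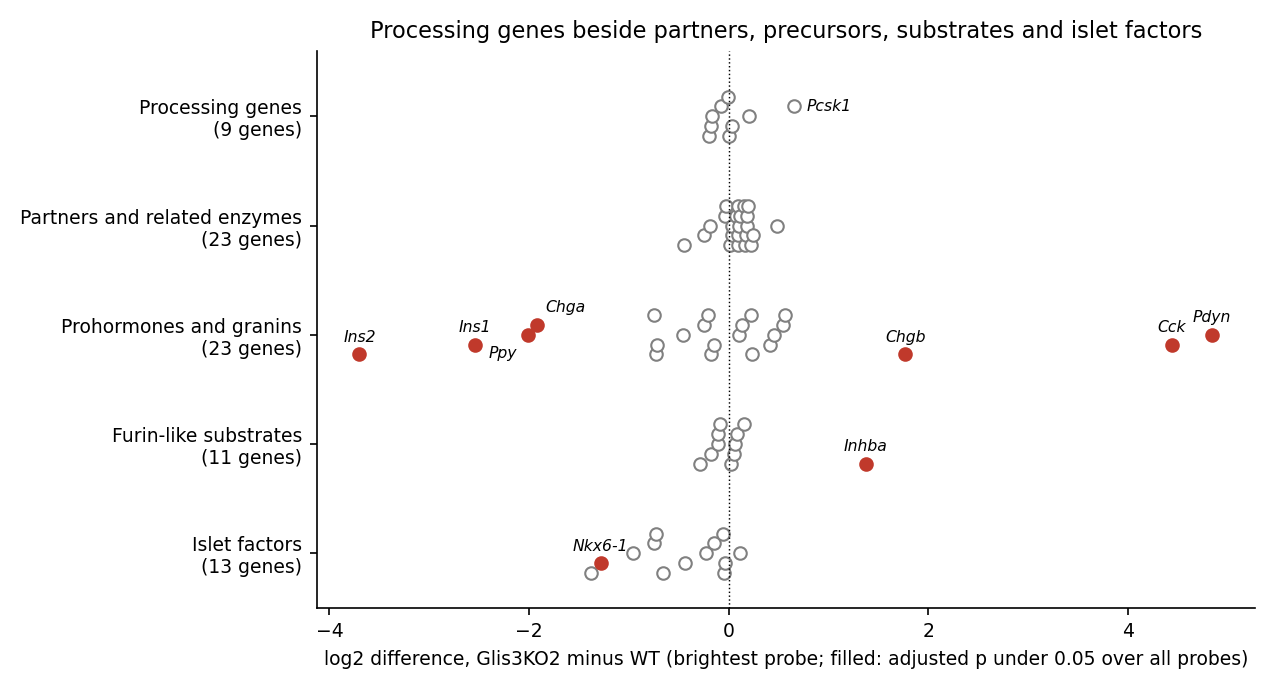
Log2 difference, Glis3KO2 minus WT, of the brightest probe of each tested gene in 5 lists, with the 9 processing genes at the top; filled points passed an adjusted p of 0.05 over all probes. The processing genes lie between -0.20 and 0.66 and the 23 tested precursors between -3.70 and 4.84.

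Of 11 substrates and receptors processed by furin-like enzymes, all tested, 1 rose, 0 fell and 10 did not pass the threshold, with a median log2 difference of 0.02. The gene that rose was Inhba, the activin beta A precursor, which read 0.79 to 1.04 on the Glis3KO2 arrays and -0.60 to -0.18 on the WT arrays. Its log2 difference was 1.37 (SE 0.12, limma adjusted p = 0.00272). It did not pass the threshold without Glis3KO2 replicates 3 and 4. Of 14 transcription factors known to act on convertase genes or islet cells, 13 were tested, of which 0 rose and 1 fell, Nkx6-1 (log2 difference -1.28, SE 0.16, limma adjusted p = 0.0162). The call of Nkx6-1 held in 11 of 19 alternative settings. In this list 12 of 13 genes had a negative difference, beside 52% of all tested probes, with a median of -0.44.

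Markers of the islet cells that use these enzymes differed by list. Some beta cell, alpha cell and PP cell markers passed the threshold, and 0 delta cell and 0 epsilon cell markers did. Of 10 beta cell markers 7 fell, beside 0.174% of all tested probes, and 9 of the 10 had a negative difference. Iapp had a positive one (log2 difference 0.45), at 115 to 288 on the Glis3KO2 arrays and 94.9 to 127 on the WT arrays. Iapp, Mafa (-0.75) and Pdx1 (-0.06) did not pass the threshold. The summed level of the 10 was 192 to 397 on the Glis3KO2 arrays and 734 to 904 on the WT arrays. Such a sum rests mostly on its brightest probes, here Ins2, Ins1 and Iapp. Of the 10, 2 fell without Glis3KO2 replicates 3 and 4, and 3 fell without WT replicate 1, 3 or 4 or without Glis3KO2 replicate 3 or 4. A total of 4 fell without WT replicate 2, without Glis3KO2 replicate 2 or with no filter on dim probes, and 3 with the replicate block or with Xist as a covariate. Of 6 alpha cell markers 1 fell, with sums of 107 to 175 in Glis3KO2 and 175 to 199 in WT. That marker was Irx2, which encodes a transcription factor. With Glis3KO2 replicate 1 left out 1 alpha cell marker fell, and with any other single array left out 0 fell (limma). The sums were 19.5 to 28.2 in Glis3KO2 and 31.3 to 39.1 in WT for 2 delta cell markers, and 1.41 to 2.42 in Glis3KO2 and 5.51 to 9.47 in WT for the PP cell marker Ppy. The call of Ppy held in 16 of 19 alternative settings. The epsilon cell marker stood at 1.01 to 1.26 in Glis3KO2 and 1.57 to 2.13 in WT. All of these markers were well above background on all 8 arrays, and their part in the values of the processing genes was not tested.

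Other cells of the pancreas that express processing enzymes were also read. For 10 markers of nerve and glia, a further source of Pcsk1, Pcsk2, Cpe and Pam, the sums were 3.80 to 4.73 in Glis3KO2 and 4.64 to 5.60 in WT. By limma 0 of the 9 tested passed the threshold. At an unadjusted p under 0.05, 2 of them differed, against 8.97% of all tested probes. The difference was negative for 8 of the 9, beside 52% of all tested probes, with a median of -0.27. With quantile normalization, median scaling, trend and robust eBayes or array weights, 1 nerve and glia marker fell. The same count was reached without Glis3KO2 replicate 1. The 6 acinar markers on the array summed to 1473 to 1884 in Glis3KO2 and 1731 to 1992 in WT, 5 duct markers to 23.2 to 29.1 in Glis3KO2 and 25.1 to 26.8 in WT, and 4 mesenchymal markers to 427 to 488 in Glis3KO2 and 383 to 472 in WT. The 4 endothelial markers summed to 14.7 to 17.6 in Glis3KO2 and 19.1 to 22.8 in WT. None of the 19 tested genes of the acinar, duct, mesenchymal and endothelial lists passed the threshold (limma). At an unadjusted p under 0.05, 3 of them differed, 1 duct gene and 2 endothelial genes, against 8.97% of all tested probes.

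The genes whose profile over the 8 arrays was most like that of each convertase were taken from 18514 genes by Pearson correlation, as a description with no test. For the brighter Pcsk1 probe they were Cyp2c65 (r = 0.989), Tm7sf2 (r = 0.963) and Ptgr1 (r = 0.962), of which Cyp2c65 encodes a cytochrome P450, Tm7sf2 a sterol reductase and Ptgr1 a prostaglandin reductase. They had log2 differences of 0.51, 0.28 and 0.38. For the brighter Pcsk2 probe they were Olfr485 (r = 0.989) and Olfr1032 (r = 0.987), both olfactory receptor genes, and Dusp3 (r = 0.976), which encodes a phosphatase. They had log2 differences of -0.19, -0.10 and -0.30. None of the 6 passed the threshold. The probes of Cyp2c65 and Olfr1032 were dim, with means of -4.57 and -4.14 in Glis3KO2 and -5.08 and -4.05 in WT. Each r is among the highest of 18514 values over 8 arrays, so selection alone raises it. The 8 points of each correlation are the arrays of both genotypes, 4 from each slide.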

How the data were processed

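Total RNA of the pancreas of 8 mice, 4 Glis3KO2 and 4 WT, was labelled with Cy3 from 500 ng, per the labels' protocols, and grouped by the sample titles. The deposited values are linear intensity values of spots, which the authors read with Agilent Feature Extraction (9.5.3.1 per the file headers, 9.5 per the submitters' processing notes). The deposited series table held the same 45018 values on each array, so the alternative setting that reads it repeats the main fit. Positions are those of mm7, per the file headers.

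From these, processed signals were divided by the 75th percentile of the 43379 non-control spots of their array and taken to log2. Outlier spots (56 to 130 per array) were left out, spots of a probe were averaged, and 0 spots were saturated. Scaling hides a change shared by most genes. Probes well above background on at least 4 of 8 arrays were tested with limma 3.58.1 (lmFit, eBayes, 2-sided, genotype alone) in R 4.3.3, with Benjamini-Hochberg adjustment over 33239 probes at 0.05. The fit was tested on simulated data with known changes. Pairs of genes were compared within arrays by exact permutation. A gene is described by its brightest probe. Of 23872 probes with an accession, 22969 matched the RefSeq gene table (GRCm38.p6), which also gave the promoters, and 5147 took a newer symbol. Python 3.11.15 drew the figures.

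The members, lists, markers and alternatives were chosen with earlier results of these data known. Named genes were the 9 members with every probe, Pcsk1n, Scg5, Ins1, Ins2, Gcg, Glis3, pathway genes past the threshold, and the 3 genes most like Pcsk1 and the 3 most like Pcsk2 by Pearson correlation. Of the listed genes, 1 precursor and 1 acinar marker matched no probe by name. Same-numbered arrays did not clearly pair: their deviations from the group means correlated at 0.129, 0.0893, 0.237 and -0.0375 for numbers 1 to 4. The WT array of the same number correlated best for Glis3KO2 replicates 2 and 3, and another WT array did for replicates 1 and 4.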

Additional observations from a re-analysis of the deposited data

Results flagged for a closer look

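Among 44 groups of 4 arrays examined, 2 held an array far from the other 3 of its genotype, where chance gives about 1 in 20. Pcsk6, by its brighter probe, read 3.225 on Glis3KO2 replicate 1 and 3.68 to 3.73 on the other Glis3KO2 arrays, a gap of 0.903 of the group's range. Ptprn2 read -4.335 on WT replicate 2 and -4.70 to -4.64 on the other WT arrays, a gap of 0.835 of the range.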

How the results depend on the processing

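No member probe passed the threshold under any of the 19 alternative settings of the fit. The differences of both Pcsk1 probes, the dimmer Pcsk2 probe, Furin and Pcsk6 kept their sign in all of them. The dimmer Pcsk2 probe ran from -0.52 to -0.35, and from -0.57 to -0.39 with single arrays left out. Pcsk1 by its brighter probe ran from 0.56 to 0.75 (adjusted p 0.125 to 0.813), and from 0.51 to 0.75 with single arrays left out. Pcsk1 minus Pcsk2 ran from 0.63 to 1.11, and from 0.74 to 0.96 with single arrays left out. With the replicate number as a block, its exact sign-flip p was 0.125, the smallest that 4 pairs allow, and the block called 15 probes over all genes (7 higher, 8 lower) against 85 (27 higher, 58 lower). That count was 51 (32 lower) with no filter on dim probes, 142 (44 higher, 98 lower) with trend and robust eBayes, 27 (12 higher, 15 lower) with Xist as a covariate and 11 (5 higher, 6 lower) without Glis3KO2 replicates 3 and 4. With single arrays left out it ran from 35 to 96 (15 to 25 higher, 20 to 73 lower). The causes were not tested.

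Small differences changed sign. With normexp background Pcsk5 (A_52_P143157) was -0.041. With quantile normalization Ptprn2 was 0.058 and Pcsk5 (A_52_P537590) 0.086. With median scaling Cpe was 0.027 and 0.012 by its 2 probes and Ptprn2 0.017. With array weights Pam was -0.021, Cpe 0.023 and Ptprn2 0.034. With Xist as a covariate Cpe was 0.083 and 0.053. Without Glis3KO2 replicates 3 and 4, Pcsk2 was 0.12, Cpe 0.011 and 0.079, and Pcsk5 0.036 (A_52_P544043) and 0.21 (A_52_P537590). The mean of all Pam probes was -0.036. With single arrays left out, Pam ran from -0.041 to 0.11, and from -0.74 to 0.25 by A_52_P494289. Cpe ran from -0.045 to 0.041 and from -0.063 to 0.029 by its 2 probes, Ptprn from -0.050 to 0.36, Ptprn2 from -0.10 to 0.10, Pcsk5 (A_52_P537590) from -0.24 to 0.11, and Ptprn minus Ptprn2 from -0.065 to 0.46. Ptprn minus Ptprn2 was 0.78 without Glis3KO2 replicates 3 and 4.

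Slide could not serve as a block, since each slide held 1 genotype. The 4 arrays per genotype limit the precision, and dim probes (Ptprn2, most Pcsk5 probes, A_52_P494289 of Pam) depend on the background correction.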
